A study of Mus musculus with 9 samples.

Results

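The genes described here encode the enzymes that make cholesterol and fatty acids and the sterol regulatory element-binding factors (SREBFs) that control them, together with some further SREBF-linked genes. They were chosen by gene name, as members of the pathway, and comprise 34 of the 43629 genes counted. All 34 were among the 19753 genes that passed the filter on low counts and were tested. They were compared between Neat1-/- and wild-type (WT) mice by RNA-seq of frontal cortex, from RNA depleted of ribosomal RNA. The 4 Neat1-/- libraries came from mice aged 3, 3, 4 and 2 months (replicates 1, 3, 4 and 5), and the 5 WT libraries from mice aged 2, 2, 3, 4 and 4 months (replicates 1 to 5). All mice were females of strain C57BL/6. Neat1 is the long noncoding RNA that scaffolds paraspeckles, and in the Neat1-/- allele lacZ and polyadenylation signals follow the Neat1 start site directly, so that the rest of the gene is still in place. Whole tissue was sequenced, and a difference in the number of cells of a type cannot be told apart from a difference in RNA per cell.

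The brain makes nearly all of its own cholesterol, because lipoproteins of the blood do not cross the blood-brain barrier, and most of that cholesterol ends up in myelin. Synthesis runs from acetyl-CoA through HMG-CoA and mevalonate to the isoprenoid diphosphates, then to squalene and lanosterol, and from there through a series of reductions, demethylations and isomerizations to cholesterol. SREBF proteins are made as membrane precursors. When sterols are plentiful, INSIG proteins hold the escort protein SCAP and its SREBF cargo in the endoplasmic reticulum, and when sterols run short the complex moves to the Golgi, where proteases release the active factor. Srebf2 is known mainly for the genes of cholesterol synthesis and Srebf1 mainly for those of fatty acid synthesis, and both act with the promoter factors NF-Y and Sp1.

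Total counts ranged from 52629603 to 64648856 in the Neat1-/- libraries and from 51276067 to 62819932 in the WT libraries. Gene positions are those of GENCODE vM21 on GRCm38. Levels are given as CPM (read counts scaled with TMM factors to a common library size of 1e+06), and differences as log2 fold changes of Neat1-/- over WT with their standard error (SE) from edgeR's quasi-likelihood test with age as a covariate. Neat1 (ENSMUSG00000092274, chr19:5824708-5845478) stood at 7.38, 7.11, 8.36 and 9.72 CPM in Neat1-/- mice, against 60.8, 83.2, 119.9, 68.1 and 75.3 CPM in WT mice (log2 fold change -3.33, SE 0.19). Markers of neurons, astrocytes, microglia and oligodendrocytes were counted in every library, whereas of 3 hepatocyte genes Alb and Cyp7a1 had at most 1 count in any library and the third had 2 to 17 counts. WT replicates 3 and 4 stood apart in an earlier analysis of these data. Gene models annotated as unconfirmed or sense intronic held 0.129%, 0.113%, 0.234%, 0.212% and 0.119% of the counts in WT replicates 1 to 5. In Neat1-/- libraries they held 0.119% to 0.136%. Choroid plexus and ependymal markers summed to 18.0 to 29.2 CPM in Neat1-/- libraries, against 26.0, 24.8, 117, 27.9 and 23.5 CPM in WT replicates 1 to 5. Meningeal markers summed to 73.6 to 107 CPM in Neat1-/- libraries, against 199, 236, 102, 30.9 and 84.9 CPM in WT replicates 1 to 5, so that WT replicates 1 and 2 stood above all other libraries and WT replicate 4 below them. Results without WT replicates 3 and 4 are given for the counts of members that were higher, lower, without overlap or different with age. They are not given for the counts of the groups by role or of the marker lists.

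Of the 19 sterol enzymes, 14 were higher in Neat1-/- than in WT cortex at an unadjusted p under 0.05, against 4.27% of all genes tested, and the log2 fold changes of the 19 ran from -0.12 to 0.30. Of the 8 fatty acid genes 2 were higher, and their log2 fold changes ran from -0.10 to 0.11. Of the 34 members, 28 had a positive log2 fold change, and the median was 0.10, against -0.00 over all genes tested. At an unadjusted p under 0.05, 20 members were higher in Neat1-/- mice, to be read against the same 4.27%. At the same threshold 0 members were lower, against 4.03% of all genes. These 20 members were 1.04 to 1.25-fold higher, with a median of 1.13-fold. After Benjamini-Hochberg adjustment over all genes tested, 0 of the 34 passed 0.05 with edgeR, with 0.0567 as the smallest adjusted p, and 0.0709% of all genes passed in either direction. DESeq2 called 6 members (Acat2, Fdft1, Fdps, Insig1, Sqle and Stard4), all higher, and 75 of all genes tested (0.38%). It used its own adjusted p with its default filtering, which need not cover all genes tested. With limma, adjusted as for edgeR, 3 were called (Acat2, Fdft1 and Fdps), all higher, and 22 of all genes (0.111%). Below, a member is called higher where its unadjusted p lay under 0.05.

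For 6 members, namely Acat2, Fdps, Fdft1, Insig1, Stard4 and Fasn, all 4 Neat1-/- libraries lay above all 5 WT libraries, an order that 1.66% of all genes tested showed. The opposite order was seen in 0 members and in 1.01% of all genes. In a further 9 members 3 of the 4 Neat1-/- libraries exceeded the highest WT library, an order that was not counted over all genes. The count of 20 changed when libraries were left out, and so did the share of all genes that were higher, 4.27% with all 9 libraries. It was 11 without Neat1-/- replicate 1 and 13 without Neat1-/- replicate 3, where 2.39% and 2.48% of all genes were higher. It was 14 without WT replicate 1 and 16 without WT replicate 2, where 3.34% and 3.88% of all genes were higher. Without WT replicates 3 and 4 it was 14, where 3.81% of all genes were higher, and 10 members then had groups that did not overlap, against 4.06% of all genes. The count without overlap was 11 without Neat1-/- replicate 5, against 2.71% of all genes. The scaling of the libraries also bore on the balance of calls. With upper-quartile factors 16 members were higher and 2 lower, while 574 of all genes were higher and 1052 lower, against 843 and 796 with TMM. With library size alone, 17 members were higher and 1 lower, and 648 of all genes were higher and 947 lower.

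**Figure D1:**
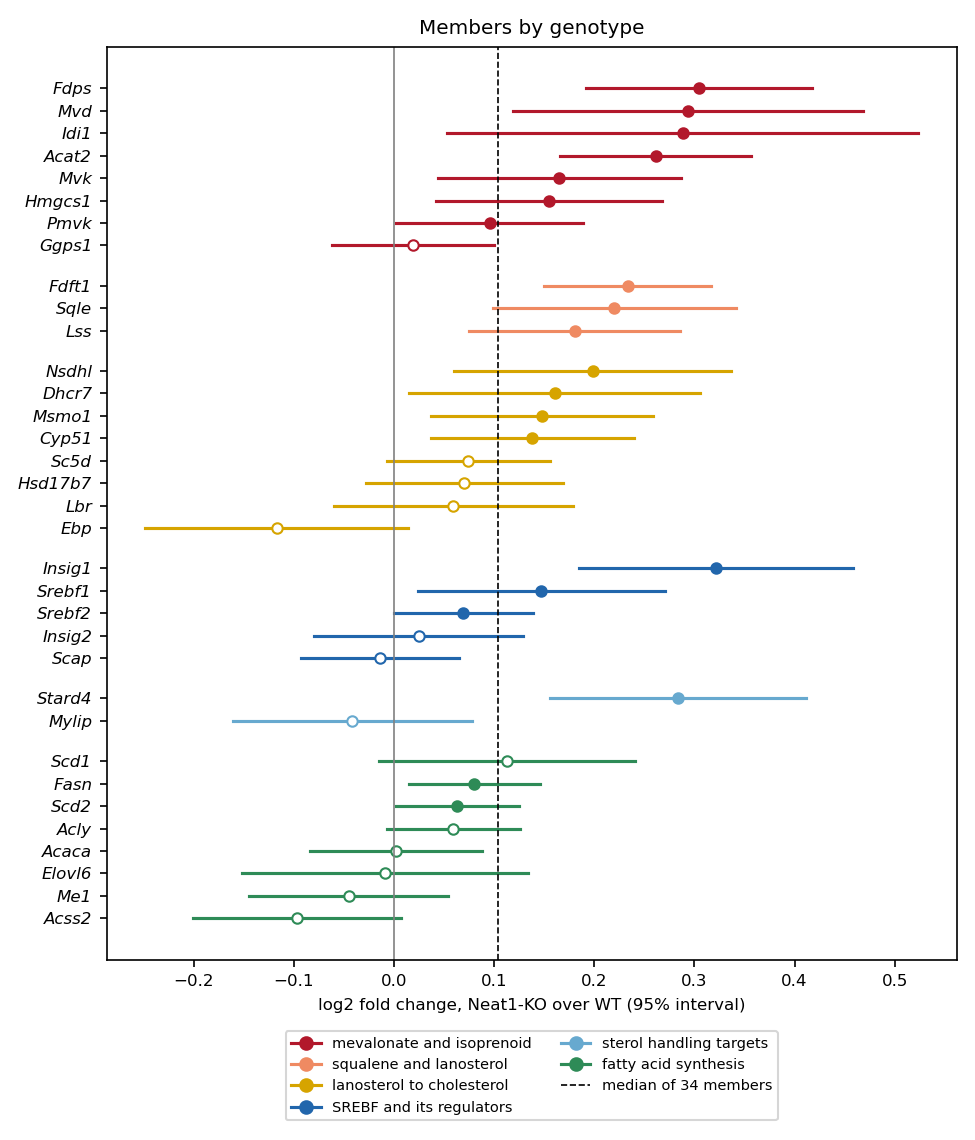
Log2 fold change (Neat1-/- over WT, horizontal axis) of each of the 34 members, grouped by role, with bars for the 95% interval from edgeR; filled points had an unadjusted p under 0.05 and open points did not. The dashed line is the median of the 34 members, 0.10, and the points reach from -0.12 for Ebp to 0.32 for Insig1.

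The promoters of the members were inspected for the elements through which SREBFs and their partners are known to act. The sequences were not used to choose the genes. The genes were chosen as members of the SREBF pathway, however, and some are known SREBF targets, so such matches are not independent of the choice. RefSeq windows of 300 bases (250 before and 50 after a start site, GRCm38.p6) were matched by symbol for 28 members, which had 37 windows in all. No window was used for Fdft1, Fdps, Scd1, Scd2, Sqle and Stard4. Both strands were searched, and a gene was counted where any of its windows held the letters. CCAAT, the box bound by NF-Y, was found in 24 of the 28 members (85.7%), against 41.9% of the 12919 tested genes with a window and 41.1% of all 27025 genes with one. GGGCGG, the Sp1 box, was found in 23 members (82.1%), against 63.5% of the tested genes. The sterol regulatory element TCACNCCAC, the classic site bound by SREBFs, was found in 1 member, Hmgcs1 (3.57%), against 1.39% of the tested genes. Its first letters TCACNCC, added after the result for the whole element was known and contained in it, were found in 5 members (17.9%), namely Acat2, Hmgcs1, Insig2, Msmo1 and Srebf2, against 19.3% of the tested genes. For comparison, CACGTG, the E-box that SREBFs can also bind, was found in 5 members (17.9%) against 10.8% of the tested genes, and TGACGTCA, the cAMP element, in 0 members against 3.24%. A match is a description of the letters only. Of the 24 members with CCAAT, 14 were higher in Neat1-/- mice, with a median log2 fold change of 0.09. Of the 4 without it (Acat2, Scap, Acaca and Elovl6) 1 was higher, with a median of -0.00. This split leaves out the members with no window, of which Fdft1, Fdps, Sqle, Stard4 and Scd2 were higher. The only window of Acaca (chr11:84195188-84195487) lies inside the gene, which starts at position 84129672. A link between the box and the difference was not tested.

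The windows of 5 members are shown, chosen because their genes were higher in Neat1-/- mice and because they span the range of matches seen. Each is read 5′ to 3′ on the strand of its gene, with CCAAT and TCACNCC or TCACNCCAC in capitals, on either strand (a CCAAT box on the opposite strand reads ATTGG). Hmgcs1 (window chr13:119690101-119690400, plus strand) holds 4 CCAAT boxes and the only whole sterol regulatory element, which lies at positions -137 to -129 from the start. Mvk (chr5:114444019-114444318, plus strand) holds 5 CCAAT boxes, the most of the members with a window, and Mvd (chr8:122443373-122443672, minus strand) holds 2. Insig1 (chr5:28071162-28071461, plus strand) holds 1. Acat2 (chr17:12960676-12960975, minus strand) holds none, and 1 copy of TCACNCC on its opposite strand.
Hmgcs1: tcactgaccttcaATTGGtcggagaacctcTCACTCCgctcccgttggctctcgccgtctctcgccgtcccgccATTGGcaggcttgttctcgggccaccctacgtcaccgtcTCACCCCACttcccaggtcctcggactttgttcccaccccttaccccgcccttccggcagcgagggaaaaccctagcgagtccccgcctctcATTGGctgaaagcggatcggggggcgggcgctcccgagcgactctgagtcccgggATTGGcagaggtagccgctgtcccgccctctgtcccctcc
Mvk: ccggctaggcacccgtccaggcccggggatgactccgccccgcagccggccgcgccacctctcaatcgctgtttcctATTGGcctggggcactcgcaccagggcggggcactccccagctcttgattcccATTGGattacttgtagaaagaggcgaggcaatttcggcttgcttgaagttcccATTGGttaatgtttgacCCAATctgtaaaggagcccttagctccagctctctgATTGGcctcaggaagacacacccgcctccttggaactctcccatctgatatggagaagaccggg
Mvd: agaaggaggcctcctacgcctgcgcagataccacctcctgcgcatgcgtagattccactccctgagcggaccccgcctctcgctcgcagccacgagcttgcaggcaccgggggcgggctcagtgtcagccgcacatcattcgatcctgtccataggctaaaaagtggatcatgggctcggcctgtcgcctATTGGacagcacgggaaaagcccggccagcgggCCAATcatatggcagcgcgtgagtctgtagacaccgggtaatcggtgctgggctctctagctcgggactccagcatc
Insig1: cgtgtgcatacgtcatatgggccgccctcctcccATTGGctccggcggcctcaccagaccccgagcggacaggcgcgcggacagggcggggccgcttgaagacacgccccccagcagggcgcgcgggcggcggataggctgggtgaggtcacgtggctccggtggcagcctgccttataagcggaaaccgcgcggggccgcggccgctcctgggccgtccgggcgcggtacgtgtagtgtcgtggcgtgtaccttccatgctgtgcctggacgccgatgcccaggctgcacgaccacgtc
Acat2: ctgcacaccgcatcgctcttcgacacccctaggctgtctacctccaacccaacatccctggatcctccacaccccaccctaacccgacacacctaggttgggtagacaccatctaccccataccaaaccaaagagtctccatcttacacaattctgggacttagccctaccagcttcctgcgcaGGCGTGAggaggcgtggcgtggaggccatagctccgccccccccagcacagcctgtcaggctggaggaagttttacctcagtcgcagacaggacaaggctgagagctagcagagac

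Of the 8 enzymes that lead from acetyl-CoA to the isoprenoid diphosphates, 7 were higher in Neat1-/- mice, and the median log2 fold change of the 8 was 0.21. Acat2 (ENSMUSG00000023832, chr17:12942890-12960747), which joins acetyl-CoA units to acetoacetyl-CoA, had 35.3, 38.7, 35.8 and 35.8 CPM in Neat1-/- mice (replicates 1, 3, 4 and 5, the order used throughout), against 31.8, 29.1, 31.4, 29.9 and 29.7 CPM in WT mice (replicates 1 to 5). Every Neat1-/- library lay above every WT library, and replicate 3 was the highest (log2 fold change 0.26, SE 0.044, 95% interval 0.17 to 0.36, edgeR adjusted p = 0.0635). Its neighbouring paralogue Acat3 was counted at 2.18 ± 0.135 CPM in Neat1-/- and 1.91 ± 0.436 CPM in WT mice, and reads shared by the pair cannot be assigned from the counts. Fdps (ENSMUSG00000059743, chr3:89093588-89101959), the farnesyl diphosphate synthase, was measured at 49.7, 53.0, 45.1 and 46.8 CPM in Neat1-/- mice, against 38.4, 37.9, 38.0, 39.8 and 42.9 CPM in WT mice. Its groups did not overlap either, and the lowest Neat1-/- library (replicate 4) was close to the highest WT library (replicate 5). The log2 fold change was 0.30 (SE 0.052, 95% interval 0.19 to 0.42, edgeR adjusted p = 0.0658), the largest of the enzymes.

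Hmgcs1 (ENSMUSG00000093930, chr13:119690379-119708260), which makes HMG-CoA and whose window holds the sterol regulatory element, had 386, 388, 379.5 and 339 CPM in Neat1-/- mice, against 373, 319.5, 322, 329 and 332 CPM in WT mice. Neat1-/- replicates 1, 3 and 4 lay above all WT libraries, while replicate 5 lay below WT replicate 1, which stood well above the other WT libraries (log2 fold change 0.15, SE 0.052). Mvd, the decarboxylase that yields isopentenyl diphosphate, had 18.4, 22.0, 17.9 and 15.9 CPM in Neat1-/- mice, against 16.2, 15.1, 14.7, 14.8 and 14.8 CPM in WT mice. Here too WT replicate 1 exceeded Neat1-/- replicate 5, and the spread among Neat1-/- mice, with replicate 3 far up, was 13.7% of their mean, the widest of the 34 members in that genotype. Its log2 fold change was 0.29 (SE 0.081). Idi1, the isomerase of isopentenyl diphosphate, was the least abundant of the members per length and the most variable in WT mice. It had 8.59, 8.58, 7.45 and 7.51 CPM in Neat1-/- mice, against 7.69, 5.50, 5.76, 6.66 and 7.28 CPM in WT mice, so that WT replicates 2 and 3 were low and WT replicate 1 lay within the Neat1-/- range (log2 fold change 0.29, SE 0.11).

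The kinases that phosphorylate mevalonate showed smaller differences. Mvk had 16.4, 16.0, 14.3 and 16.1 CPM in Neat1-/- mice, against 14.6, 13.4, 14.1, 13.7 and 14.2 CPM in WT mice, and its log2 fold change was 0.16 (SE 0.056). Pmvk had 30.1, 30.6, 28.5 and 29.6 CPM in Neat1-/- mice, against 27.7, 28.2, 29.2, 26.0 and 28.0 CPM in WT mice, with a log2 fold change of 0.10 (SE 0.043). In both, 3 Neat1-/- libraries exceeded all WT libraries and replicate 4 did not. Ggps1, which makes geranylgeranyl diphosphate for protein prenylation and thus leads away from cholesterol, lay at 53.8 to 56.0 CPM in Neat1-/- mice and 50.7 to 56.3 CPM in WT mice. Its log2 fold change was 0.02 with a 95% interval of -0.06 to 0.10.

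All 3 enzymes that carry farnesyl diphosphate to lanosterol were higher in Neat1-/- mice, with a median log2 fold change of 0.22. Fdft1 (ENSMUSG00000021273, chr14:63145150-63179578), the squalene synthase, which commits farnesyl diphosphate to sterols, had 86.9, 92.8, 82.7 and 85.2 CPM in Neat1-/- mice, against 72.9, 71.7, 73.3, 74.4 and 77.4 CPM in WT mice. The groups did not overlap, and its adjusted p was the smallest of the 34 members (log2 fold change 0.23, SE 0.038, 95% interval 0.15 to 0.32, edgeR adjusted p = 0.0567). Exons of Fdft1 share 18.3% of their bases with exons of Ctsb on the opposite strand, a gene counted at 458 ± 16.3 CPM in Neat1-/- and 451 ± 16.6 CPM in WT mice with a log2 fold change of 0.02 (SE 0.032). Sqle (ENSMUSG00000022351, chr15:59315077-59331192), the squalene epoxidase and a rate-limiting step, had 71.5, 77.5, 70.0 and 61.0 CPM in Neat1-/- mice, against 62.7, 56.4, 57.5, 62.7 and 60.9 CPM in WT mice. Neat1-/- replicate 5 lay within the WT range and the other 3 above it (log2 fold change 0.22, SE 0.056, edgeR adjusted p = 0.388). Lss, the lanosterol synthase, had 61.6, 63.6, 58.4 and 57.3 CPM in Neat1-/- mice, against 50.5, 49.1, 58.1, 52.4 and 55.8 CPM in WT mice, with WT replicate 3 above the lowest Neat1-/- library (log2 fold change 0.18, SE 0.049).

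**Figure D2:**
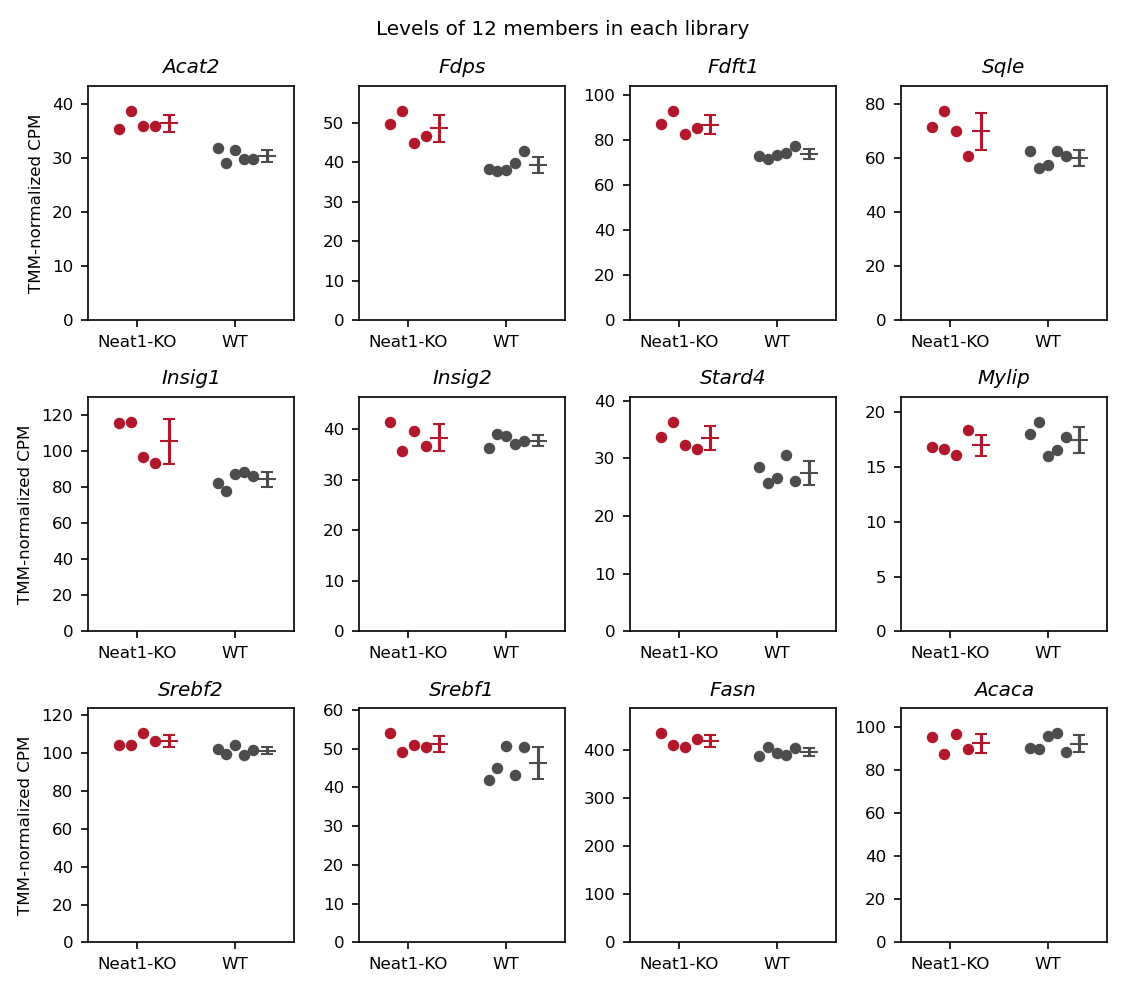
TMM-normalized CPM (vertical axis, from 0) of 12 members in each library, Neat1-/- (labelled Neat1-KO) on the left and WT on the right of each panel, with the mean and SD of each genotype. In the panels of Acat2, Fdps, Fdft1, Insig1, Stard4 and Fasn no WT point reaches the lowest Neat1-/- point, whereas the points of Insig2, Mylip and Acaca overlap.

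Of the 8 enzymes between lanosterol and cholesterol, 4 were higher in Neat1-/- mice, 7 had a positive log2 fold change, and the median was 0.11. In 0 of them did the groups separate fully. Cyp51, the lanosterol demethylase, had 88.8, 91.1, 83.6 and 74.1 CPM in Neat1-/- mice, against 73.1, 74.8, 77.4, 80.2 and 78.0 CPM in WT mice, so that replicate 5 lay near the bottom of the WT range and the other Neat1-/- libraries above it (log2 fold change 0.14, SE 0.047). Msmo1, the methylsterol monooxygenase that follows, had 110.0, 109, 96.9 and 93.4 CPM in Neat1-/- mice, against 93.4, 87.6, 92.2, 98.5 and 89.7 CPM in WT mice. Only Neat1-/- replicates 1 and 3 exceeded all WT libraries (log2 fold change 0.15, SE 0.051). Nsdhl, the X-linked sterol dehydrogenase that removes the oxidized methyl group, had 20.0, 18.9, 20.1 and 16.6 CPM in Neat1-/- mice, against 17.3, 15.6, 17.3, 15.8 and 16.3 CPM in WT mice. Its log2 fold change was 0.20 (SE 0.064), the largest between lanosterol and cholesterol, and replicate 5 was again the low Neat1-/- library. Dhcr7, the reductase of dehydrocholesterol at the end of the pathway, had 13.1, 15.6, 15.1 and 13.5 CPM in Neat1-/- mice, against 12.5, 13.1, 13.6, 12.7 and 12.2 CPM in WT mice. Replicates 3 and 4 were the high ones here, and replicates 1 and 5 lay within the WT range (log2 fold change 0.16, SE 0.067).

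The other 4 enzymes of this stretch did not pass the threshold. Sc5d, a sterol desaturase, had a log2 fold change of 0.07 (95% interval -0.01 to 0.16), with 59.4 to 65.8 CPM in Neat1-/- and 56.8 to 63.5 CPM in WT mice. Hsd17b7, which reduces the keto group of the sterol ring, had one of 0.07 (95% interval -0.03 to 0.17), and Lbr, a sterol reductase that is also a receptor for lamin B, one of 0.06 (95% interval -0.06 to 0.18). Ebp, the sterol isomerase, had the lowest log2 fold change of all members at -0.12 (SE 0.061, 95% interval -0.25 to 0.01). It lay at 12.9, 13.2, 12.7 and 13.9 CPM in Neat1-/- mice, against 15.1, 14.7, 12.8, 14.2 and 14.6 CPM in WT mice, with all 4 Neat1-/- libraries below the WT mean and WT replicate 3 next to the lowest of all.

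Of the SREBFs and their regulators, Insig1 differed most, and the escort protein least. Insig1 (ENSMUSG00000045294, chr5:28071363-28078662) encodes a protein that retains SREBFs in the endoplasmic reticulum and is itself a known SREBF target. It had 116, 116, 96.5 and 93.2 CPM in Neat1-/- mice, against 82.5, 78.0, 87.3, 88.4 and 86.0 CPM in WT mice. All Neat1-/- libraries lay above all WT libraries, with replicates 1 and 3 well above replicates 4 and 5. Its log2 fold change of 0.32 (SE 0.063, 95% interval 0.18 to 0.46, edgeR adjusted p = 0.166) was the largest of the 34. Insig2 (ENSMUSG00000003721, chr1:121304353-121332589), its paralogue with the same retaining function, had 41.4, 35.7, 39.6 and 36.7 CPM in Neat1-/- mice, against 36.3, 39.0, 38.6, 37.1 and 37.7 CPM in WT mice. The libraries of both genotypes were interspersed (log2 fold change 0.02, 95% interval -0.08 to 0.13). The ratio of Insig1 to Insig2 CPM, a measure taken after both values were known, was 2.80, 3.25, 2.43 and 2.54 in Neat1-/- mice, against 2.27, 2.00, 2.26, 2.38 and 2.28 in WT mice. The groups did not overlap (difference of mean log2 ratios 0.29).

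Srebf2 (ENSMUSG00000022463, chr15:82147181-82205379), the factor known for the sterol genes, had 104, 104, 111 and 106 CPM in Neat1-/- mice, against 102, 99.7, 104, 99.2 and 102 CPM in WT mice. Neat1-/- replicates 1 and 3 and WT replicate 3 were nearly equal, and the difference was small (log2 fold change 0.07, SE 0.032, 95% interval 0.00 to 0.14). Srebf1 (ENSMUSG00000020538, chr11:60199089-60222581), the factor known for fatty acid genes, had 54.0, 49.2, 51.0 and 50.5 CPM in Neat1-/- mice, against 41.9, 45.1, 50.6, 43.1 and 50.5 CPM in WT mice. Its WT levels fell into a low set (replicates 1, 2 and 4) and a pair within the Neat1-/- range (replicates 3 and 5), and the log2 fold change was 0.15 (SE 0.057, 95% interval 0.02 to 0.27). Scap, the escort protein, had 85.1, 85.2, 80.7 and 85.7 CPM in Neat1-/- mice, against 85.1, 87.4, 82.6, 80.6 and 89.2 CPM in WT mice. Its log2 fold change was -0.01 (95% interval -0.09 to 0.06), and the genotypes overlapped throughout. These are RNA levels, and the cleavage that activates SREBF proteins was not measured.

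Among the genes of sterol handling, Stard4 was higher in Neat1-/- mice and Mylip was not. Stard4 (ENSMUSG00000024378), a cytosolic carrier of sterols between membranes and a known SREBF target, had 33.7, 36.3, 32.4 and 31.7 CPM in Neat1-/- mice, against 28.6, 25.8, 26.6, 30.6 and 26.1 CPM in WT mice. The groups did not overlap, although WT replicate 4 came close to the lowest Neat1-/- library (log2 fold change 0.28, SE 0.059, edgeR adjusted p = 0.221). Mylip, a ubiquitin ligase that marks lipoprotein receptors for degradation and is known as a target of the liver X receptors, had 16.0 to 18.3 CPM in Neat1-/- mice and 16.0 to 19.1 CPM in WT mice. Its log2 fold change was -0.04 (95% interval -0.16 to 0.08).

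The 8 genes of fatty acid synthesis had a median log2 fold change of 0.03, with 5 positive and 2 higher. Fasn (ENSMUSG00000025153, chr11:120805846-120824547), the fatty acid synthase, had 436, 412, 407 and 423 CPM in Neat1-/- mice, against 389, 406, 395, 389.8 and 404 CPM in WT mice. The groups did not overlap but nearly touched, at Neat1-/- replicate 4 and WT replicate 2, and the log2 fold change was 0.08 (SE 0.030). Scd2, the stearoyl-CoA desaturase most abundant in brain, had 1153, 1087, 1111 and 1074 CPM in Neat1-/- mice, against 1063, 1022, 1048, 1056 and 1106 CPM in WT mice, with WT replicate 5 above 2 of the Neat1-/- libraries (log2 fold change 0.06, SE 0.028). The other 6 did not pass the threshold. Their log2 fold changes were 0.11 for the desaturase Scd1, 0.06 for Acly, the citrate lyase that supplies cytosolic acetyl-CoA, and 0.00 for the acetyl-CoA carboxylase Acaca. They were -0.01 for the elongase Elovl6, -0.05 for Me1, a malic enzyme that supplies NADPH, and -0.10 for the acetyl-CoA synthetase Acss2. The intervals of Acaca (-0.08 to 0.09) and Elovl6 (-0.15 to 0.13) lay on both sides of 0, and the sign of Acaca turned negative with upper-quartile factors (-0.01) and with library size alone (-0.01).

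The abundance of the members, as CPM per kb of merged exon length, spanned a wide range that was nearly the same in both genotypes. Scd2 was the most abundant at 202 CPM per kb in Neat1-/- mice and 194 in WT mice, followed by Hmgcs1 at 81.2 in Neat1-/- and 73.0 in WT mice. Acly and Fasn came next in both genotypes. Scd1 and Insig1 changed places, with Insig1 at 34.1 and Scd1 at 32.5 CPM per kb in Neat1-/- mice, against 27.3 for Insig1 and 30.1 for Scd1 in WT mice. The least abundant were Dhcr7, at 2.46 in Neat1-/- and 2.21 in WT mice, and Idi1, at 2.29 in Neat1-/- and 1.88 in WT mice. Exons of 14 of the 34 members share bases with those of another annotated gene, between 0.53% and 26.7% of the member's exon bases, and for the other 20 there was no such overlap. The largest shares were that of Fdps with Gm43738, a model on the same strand that the counts do not list, and that of Fdft1 with Ctsb. A strand setting for the counting is not given in the sources used here, so reads over an opposite-strand overlap cannot be assigned with certainty.

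A wider set of pathway genes, 56 tested genes that are not among the 34, held a smaller share of differences than the 34. Of these 56, 9 were higher and 2 lower (unadjusted p under 0.05), and the median log2 fold change was 0.03. Of all genes tested, 4.27% were higher and 4.03% lower, and the same shares stand beside the counts of the lists that follow. Among 14 other sterol and isoprenoid enzymes and their helpers 2 were higher and 0 lower (median 0.04). The most abundant helper, Pgrmc1, a heme protein that binds sterol-metabolizing cytochromes, had 247 ± 4.83 CPM (SD, n = 4) in Neat1-/- mice and 238 ± 18.8 CPM (SD, n = 5) in WT mice, a log2 fold change of 0.06 (95% interval -0.05 to 0.16). Among 22 genes that transport, cleave or degrade SREBFs and their partners, 2 were higher and 1 lower (median 0.02). Nfyb, a subunit of NF-Y, had 55.5 ± 1.77 CPM in Neat1-/- mice and 52.1 ± 1.87 CPM in WT mice (log2 fold change 0.09, SE 0.038). Mbtps2, the intramembrane protease that frees SREBFs in the Golgi, was the lower one. It had 23.6, 21.9, 22.4 and 22.9 CPM in Neat1-/- mice, against 24.2, 23.8, 24.8, 24.1 and 24.6 CPM in WT mice, with all Neat1-/- libraries below all WT libraries (log2 fold change -0.10, SE 0.043). Fbxw7, a ubiquitin ligase gene that marks nuclear SREBFs, was among the most abundant of this list and had a log2 fold change of 0.02 (SE 0.027).

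Among 20 other lipogenic genes and SREBF targets 5 were higher and 1 lower, against 4.27% and 4.03% of all genes, with a median log2 fold change of 0.05. Acsl3, a long-chain acyl-CoA synthetase, was among the higher ones, with 241 ± 9.25 CPM in Neat1-/- mice and 229 ± 5.56 CPM in WT mice (log2 fold change 0.08, SE 0.034). Aldoc, the brain aldolase and the most abundant of the list, had a log2 fold change of 0.04 (95% interval -0.04 to 0.13). The count of 9 higher genes fell to 5 without WT replicate 2, WT replicate 4 or Neat1-/- replicate 1, each left out alone. In these refits 3.88%, 2.40% and 2.39% of all genes were higher.

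The libraries of a genotype differed from one another in a way that several members shared. Among the 20 higher members, Neat1-/- replicate 3 was the highest Neat1-/- library for 12 and replicate 5 the lowest for 10, and WT replicate 2 was the lowest WT library for 13. These orders were not counted over all genes, so they cannot be said to be particular to the members. Over the 19 sterol enzymes (the enzymes from Acat2 to Dhcr7), the median deviation from the 9-library mean, in log2 units, was 0.13, 0.17, 0.06 and 0.02 in Neat1-/- mice, against -0.03, -0.13, -0.07, -0.09 and -0.03 in WT mice. For the 8 fatty acid genes the same medians ran from -0.01 to 0.07 in Neat1-/- mice and from -0.05 to 0.03 in WT mice, and the genotypes overlapped.

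**Figure D3:**
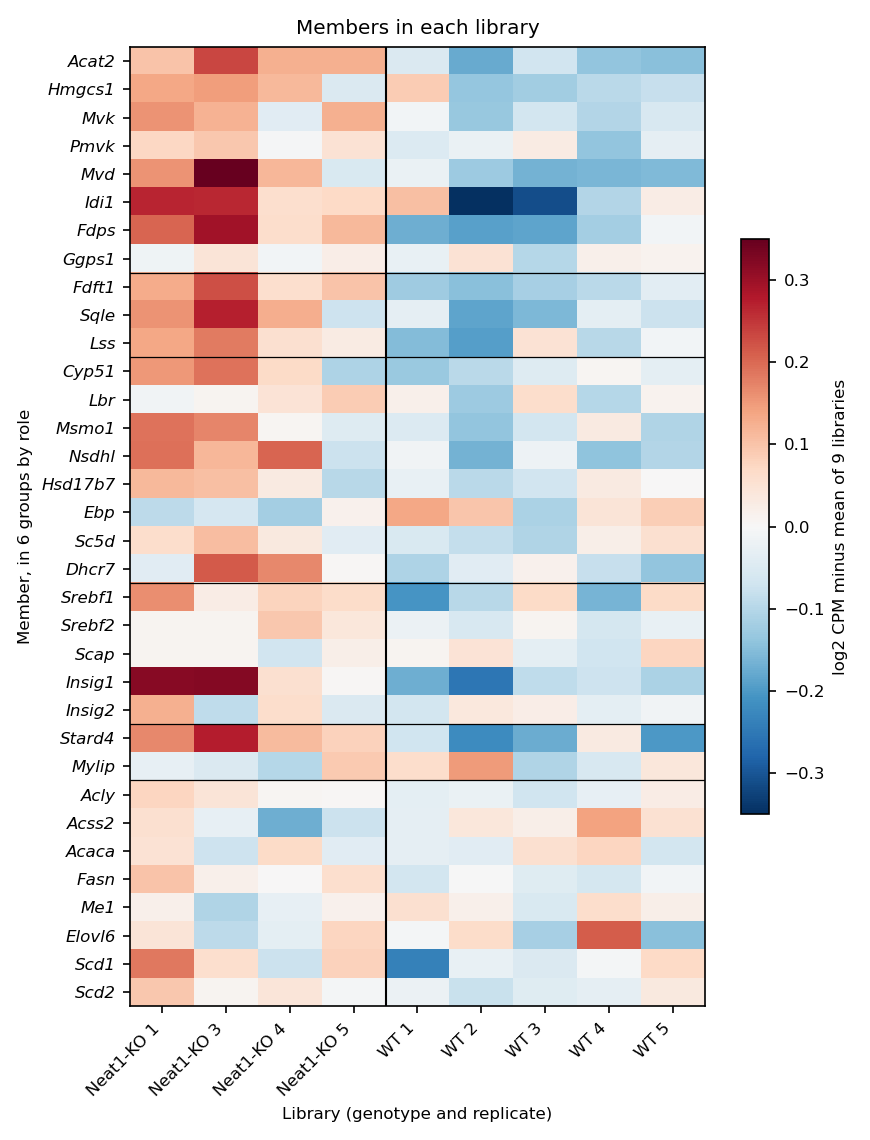
Log2 CPM of each of the 34 members (rows, in 6 groups by role separated by lines) in each library (columns, Neat1-/- labelled Neat1-KO on the left, WT on the right), minus the member's mean over the 9 libraries; red is above and blue below that mean, and the few largest deviations lie beyond the ends of the colour scale. Red fills most of the upper rows under Neat1-/- replicates 1 and 3 and is paler under replicates 4 and 5, and the lower rows show no such order.

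Once the mean of each genotype was removed, the sterol enzymes had pair correlations within the range of the cell type marker lists. Across the 9 libraries, which share depth and dissection and are few, the median Pearson correlation between pairs was 0.29 for the 19 sterol enzymes, 0.26 for the 8 fatty acid genes and 0.13 for all 34 members, against -0.00 between genes at large. Within the sterol enzymes it was 0.30 for the 8 enzymes up to the isoprenoid diphosphates, 0.59 for the 3 from there to lanosterol and 0.07 for the 8 from lanosterol to cholesterol. By the same measure the marker lists of 8 cell types ran from 0.19 for neurons, 0.20 for oligodendrocyte progenitors and 0.28 for astrocytes to 0.78 for meningeal fibroblasts and 0.83 for mature oligodendrocytes. These values are descriptions over the same 9 libraries. The members most like the sterol enzymes, by their median correlation with them, were Sqle (0.58), Hsd17b7 (0.57), Fdft1 (0.51), Fdps (0.51) and Insig1 (0.49), and Srebf2 had the lowest value (-0.28).

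Markers of the cell types in the tissue did not all stand level between genotypes. All 12 markers of mature oligodendrocytes had negative log2 fold changes, with a median of -0.27, and 6 of the 12 were lower (unadjusted p under 0.05), against 4.03% of all genes tested. None of the 12 was at 0 in any library. Their summed level was 2942, 1923, 2244 and 2779 CPM in Neat1-/- mice, against 3487, 2249, 2980, 2834 and 3091 CPM in WT mice, so that the groups overlapped. Neat1-/- replicate 3, the library with the lowest oligodendrocyte sum, had the highest median of the sterol enzymes, whereas WT replicate 2, the lowest of the WT libraries for oligodendrocyte markers, had the lowest. Of the 10 astrocyte markers, 8 had positive log2 fold changes and 2 were higher (median 0.05), with summed levels of 4427 to 4534 CPM in Neat1-/- mice and 4052 to 4595 CPM in WT mice. Of the 9 neuron markers, 8 were positive and 1 was lower (median 0.04), with sums of 6854 to 7305 CPM in Neat1-/- mice and 6745 to 7072 CPM in WT mice. All 6 tested markers of oligodendrocyte progenitors had negative log2 fold changes and 1 was lower (median -0.12), with sums of 161 to 171 CPM in Neat1-/- mice and 163 to 190 CPM in WT mice. Of the 7 microglia markers, 5 were positive and 2 were higher (median 0.04), with sums of 292 to 312 CPM in Neat1-/- mice and 271 to 312 CPM in WT mice. No marker of the other 3 lists passed the threshold. All 5 tested choroid plexus and ependymal markers were negative (median -0.33), as were 5 of the 6 meningeal markers (median -0.13) and 3 of the 6 endothelial and mural markers (median -0.02). The part of these markers in the levels of the sterol genes was not tested.

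**Figure D4:**
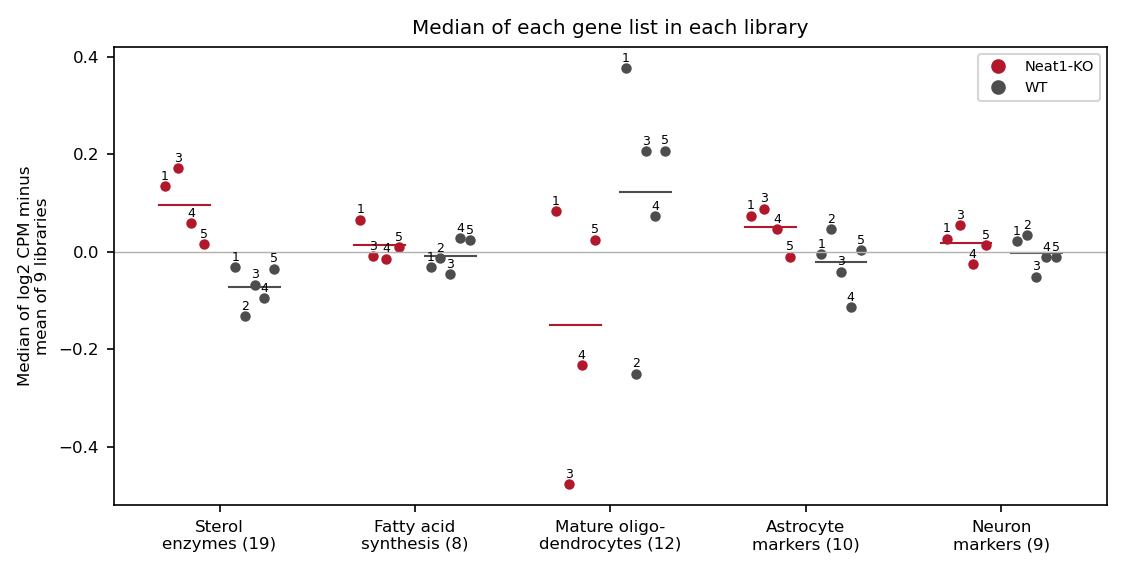
Median over each gene list (number of genes in brackets) of the deviation of log2 CPM from the mean of 9 libraries, for each library; points carry their replicate number, Neat1-/- (Neat1-KO) left and WT right, and short lines are genotype means. The sterol enzymes separate by genotype (0.02 to 0.17 in Neat1-/- and -0.13 to -0.03 in WT libraries), while the oligodendrocyte medians spread widely and overlap.

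Age was the other labelled variable, and 0 of the 34 members differed with age at an unadjusted p under 0.05 in the same edgeR fit (0 after adjustment), against 5.98% of all genes tested. The median log2 change of the members per month of age was 0.02. The count of 0 changed when libraries were left out. It was 6 without Neat1-/- replicate 4, 4 without WT replicate 5, 2 without WT replicate 3 or Neat1-/- replicate 3, 1 without WT replicate 1 or WT replicate 4, and 4 without WT replicates 3 and 4 together. The share of all genes that differed with age was not taken for these refits. The counts without a library therefore cannot be read as a trait of the members. Each genotype spanned 2 to 4 months, with 1 or 2 mice per age.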

How the data were processed

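RNA was isolated by the authors from dissected frontal cortex of 4 Neat1-/- and 5 WT female mice, depleted of ribosomal RNA and sequenced. The deposited files hold raw counts per Ensembl gene, which the authors made by alignment to mm10 and counting (HTSeq 0.8.0 and STAR 2.5.0 according to the submitters' processing notes, TopHat and HTSeq in strict intersection mode according to the supplementary methods), and normalized log2 expression, which the authors deposited for 13456 genes, all 34 members included, after TMM normalization and removal of covariate effects. The strand setting of the counting is not given in the sources used here.

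The raw counts were used as deposited, and 0 entries named no gene. Names, positions and exon lengths came from GENCODE vM21 by Ensembl ID (97.5% of IDs matched). Genes were kept by filterByExpr by genotype and tested with edgeR 4.0.16 (R 4.3.3): TMM factors, age in months and genotype, quasi-likelihood test, Benjamini-Hochberg adjustment over 19753 genes at 0.05, with a common biological coefficient of variation of 0.0922. Standard errors are the absolute log2 fold change over the root of F. Log2 CPM used a prior count of 2. The deposited log2 values gave differences of means only. Promoters came from RefSeq (GRCm38.p6), and Matplotlib 3.10.9, SciPy 1.17.1, pandas 2.3.3 and NumPy 2.4.6 were run under Python 3.11.15.

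The 34 members, the other gene lists, the tests and the alternatives were chosen with earlier results of these data known. The text gives every member, in each library where its unadjusted p lay under 0.05 or it is an SREBF, Scap or an Insig gene; of each other pathway list, genes were drawn from the 2 with the smallest p and the 2 with the highest mean CPM. Not every gene of those lists is reported here by name. Alternatives were DESeq2 1.42.0, limma 3.58.1 (voomWithQualityWeights), RLE and upper-quartile factors and library size alone, no filter on low counts, a CPM of at least 1 in at least 4 libraries, no age term, age as a factor, a replicate block, and leaving out single libraries or WT replicates 3 and 4.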

Additional observations from a re-analysis of the deposited data

Results flagged for a closer look

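Within a genotype, 4 of the 68 sets of levels (34 members in 2 genotypes) held a library farther from the rest than Dixon's test allows, and chance alone gives about 1 in 20. Acat2 was at 38.7 CPM in Neat1-/- replicate 3, against 35.3 to 35.8 CPM in the other Neat1-/- libraries. Scap was at 80.7 CPM in Neat1-/- replicate 4, against 85.1 to 85.7 CPM in the other Neat1-/- libraries. Hmgcs1 was at 373 CPM in WT replicate 1, against 319.5 to 332 CPM in the other WT libraries. Mvd was at 16.2 CPM in the same library, against 14.7 to 15.1 CPM in the other WT libraries.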

How the results depend on the processing

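The correlations of same-numbered libraries were 0.07, -0.07, 0.18 and -0.09, and 0 of the 4 Neat1-/- libraries correlated best with its own number. No pairing by replicate number was visible in these few values, which cannot exclude one. With the replicate block 15 members were higher, 0 lower and 0 called at an adjusted p under 0.05 with edgeR, and of the other pathway genes 5 were higher and 0 lower.

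Of 34 members under 20 alternatives, 638 comparisons kept their direction and their side of the threshold of adjusted p, 22 passed it in addition, and 20 changed sign. The members called numbered 6 with DESeq2, 3 with limma, 6 with no filter (the same 6 as with DESeq2, where 76 of all genes were called, against 14) and 2 with no age term, and 0 to 3 when single libraries were left out. The members higher numbered 11 to 20 with single libraries left out, where 2.39% to 6.13% of all genes were higher. They numbered 15 to 21 under the other tests, scalings, filters and age terms, where 2.91% to 5.50% of all genes were higher. The members lower numbered 1 with limma, 2 with upper-quartile factors, 1 with library size only, 2 with the CPM filter, 1 with age as a factor, 1 without WT replicates 3 and 4, and 0 to 1 with single libraries left out. Of all 19753 genes, 868 were lower with limma, 1052 with upper-quartile factors, 947 with library size only and 966 with age as a factor. With the CPM filter 674 of 15067 genes were lower, and without WT replicates 3 and 4 it was 687 of 19714. The other pathway genes higher were 5 with upper-quartile factors and 5 to 12 with single libraries left out. Those lower were 1 each with DESeq2, limma, no filter and without WT replicates 3 and 4, and 0 to 2 with single libraries left out. Members without overlap numbered 10 without WT replicates 3 and 4, against 4.06% of all genes. They numbered 5 to 11 with single libraries left out, against 1.78% to 3.16% of all genes. Members that differed with age were 2 with upper-quartile factors, 2 with library size only, 1 with no filter, 2 with the CPM filter, 4 without WT replicates 3 and 4, and 0 to 6 with single libraries left out. No share over all genes was taken for these age counts.

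The median log2 fold change of the members was 0.08 to 0.12 under all of these alternatives and 0.09 in the deposited log2 values, and it was 0.21 for the mevalonate group, 0.22 for the squalene group and 0.031 for the fatty acid group taken alone. The sign changed only in members close to 0. Acaca was at -0.013 with upper-quartile factors, -0.0087 with library size only, -0.0088 with the CPM filter, -0.0029 with age as a factor, -0.0061 with the replicate block and -0.031 to 0.025 with single libraries left out. Elovl6 was at 0.020 with age as a factor, 0.050 without WT replicates 3 and 4 and -0.053 to 0.062 with single libraries left out. Scap was at 0.0029 with the replicate block and -0.037 to 0.012 with single libraries left out. Ggps1 was at -0.0021 without WT replicates 3 and 4 and -0.0074 to 0.033 with single libraries left out, and Insig2 at -0.021 to 0.055 with single libraries left out. The cause of these changes was not tested. The lowest level of a member in any library was 5.50 CPM, for Idi1 in WT replicate 2, and the part of depth in its spread was not tested.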
